A study of Mus musculus with 16 samples.

Results

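The immune checkpoint genes described here are 10 genes for inhibitory receptors of lymphocytes and for the ligands and B7 family proteins that engage such receptors. They were taken by gene symbol from 4 deposited count tables of mouse tumour lines with and without Trp53bp1, which encodes 53BP1, a factor of DNA double-strand break repair. All 10 symbols were found among 18635 listed genes. The receptors were Pdcd1 (PD-1), Ctla4, Lag3, Havcr2 (TIM-3), Tigit and Btla, and the others were Cd274 (PD-L1), Pdcd1lg2 (PD-L2), Vsir (VISTA) and Cd276 (B7-H3). The 16 libraries, each labelled as a tumour, formed 4 groups. These were ID8 wild type (3 libraries), ID8 Trp53bp1 KO (3), KPC wild type (5) and KPC Trp53bp1 KO (5). ID8 derives from mouse ovarian surface epithelium, and KPC lines derive from mouse pancreatic cancers. The lines were grown in syngeneic mice per the labels, whose extraction text nevertheless speaks of RNA from cells. Genotypes are given for the lines alone, and ages, sexes and sites of implantation of the hosts are not stated there. The labels name a single line per genotype, so an effect of the knockout and a difference between 2 lines or clones cannot be told apart. The replicates are labelled biological with no animal named, and p-values measure the spread between these libraries.

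Checkpoint receptors are carried mainly by T cells, where they appear after activation and damp signalling through the T cell receptor and CD28. PD-1 binds PD-L1, which tumour cells and myeloid cells can both display, and PD-L2, which is largely a protein of dendritic cells and macrophages. Interferon-gamma, acting through JAK kinases and the factor IRF1, is the best known inducer of PD-L1, and blocking antibodies against PD-1, PD-L1 and CTLA-4 are used against tumours.

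Totals per library ranged from 17902877 to 19727541 counts. Values below are CPM (counts scaled to a common library size) on edgeR's TMM scale, set within each line, and a gene counts as called where its adjusted p from edgeR's quasi-likelihood test, fitted over all genes of the comparison, was under 0.05. Trp53bp1 itself was lower in the knockout libraries, at a ratio of the means of 0.399 in ID8 (exact two-sided permutation p = 0.1, the smallest that 3 against 3 allow) and at a ratio of 0.663 in KPC (exact p = 0.00794, the smallest that 5 against 5 allow). Epithelial markers moved with genotype, in opposite directions in the lines. The keratin gene Krt8 was at 1333 to 1469 CPM in ID8 wild type and 994.7 to 1016 CPM in knockout, and at 1720 to 2214 and 2936 to 3821 CPM in KPC. Of 6 such markers 5 were called lower in ID8 (summed level 3628 to 3918 CPM in wild type and 2793 to 2882 CPM in knockout) and 5 higher in KPC (6025 to 7148 and 9817 to 11965 CPM). Over all genes tested, 25.5% were called lower in ID8, and in KPC 6.67% were called higher and 7.01% lower. Markers of host cells differed between the lines. Ptprc, the pan-leukocyte gene CD45, Adgre1 of macrophages and Cd3e of T cells had 0 counts in every ID8 library. Other listed markers were counted there. At 0 in both ID8 groups were 8 of 10 T cell, 5 of 10 macrophage, 2 of 6 leukocyte and 5 of 8 dendritic cell markers. The macrophage sum in ID8 was 17.5 to 19.7 CPM in wild type and 10.2 to 11.8 CPM in knockout. The dendritic cell sum was 270.0 to 282.7 and 284.9 to 307.3 CPM, with Flt3, Xcr1, Clec9a, Ccl22 and Cd209a at 0 counts in both groups. That sum rests on the other listed markers, among them Fscn1, which is high in ID8, and is not a measure of dendritic cells there. Whether the ID8 RNA came from tumour tissue, as labelled, or from cells without host cells is not settled by the labels, and each ID8 value and each contrast with KPC is to be read with that limit. In KPC the summed level of 6 leukocyte markers was 331.1 to 897.7 CPM in wild type and 738.3 to 1509 CPM in knockout, and that of 10 listed T cell markers was 15.2 to 117.1 and 83.3 to 159.1 CPM. These ranges overlapped, and 2 of the 6 leukocyte and 2 of the 10 T cell markers were called higher, with 0 lower. The summed level of 8 skeletal muscle markers was 544.0 to 29051 CPM in KPC wild type and 18.2 to 5806 CPM in knockout, with 0 of the 8 called. KPC wild-type replicate 4 had the highest T cell and leukocyte sums of its group.

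The PD-1 ligand genes Pdcd1lg2 and Cd274 rose with the knockout in KPC, and they were the only 2 of the 10 members called there. All 10 members passed the count filter in KPC. Of 14283 genes tested in KPC, 6.67% were called higher, 7.01% were called lower and 13.7% were called in all. The median log2 change of the 10 members was 1.01, against -0.01 over all genes tested, with 8 changes positive and 2 negative. Lists of host immune cell markers also had positive medians. These were 1.12 (leukocyte), 1.47 (T cell), 1.60 (regulatory T cell), 1.61 (NK cell), 1.49 (dendritic cell), 1.56 (B cell), 0.66 (macrophage) and 0.57 (neutrophil). In the same order, 2 of 6, 2 of 10, 2 of 3, 2 of 6, 5 of 8, 1 of 2, 0 of 10 and 1 of 5 markers tested were called higher. Only 1, of dendritic cells, was called lower, and 2 of 5 B cell markers were tested. A positive median was thus not particular to the members. At an unadjusted p under 0.05 there were 7 members, against 4637 genes in all (32.5% of those tested). In bulk RNA a change in the number of cells of a type and a change in RNA per cell cannot be told apart.

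Pdcd1lg2 (gene ID 58205), the gene of PD-L2, was at 3.26, 3.75, 8.40, 10.8 and 2.73 CPM in KPC wild-type replicates 1 to 5 and at 33.8, 19.9, 19.9, 39.0 and 18.4 CPM in the knockout replicates. Every knockout library was above every wild-type library. Groups did not overlap in that direction for 5.34% of all genes tested, and in the other direction for 6.42%. The means were 5.80 ± 3.61 and 26.2 ± 9.53 CPM (SD, n = 5 each), with a log2 change of 2.17 (SE 0.417, edgeR adjusted p = 0.0118). The call held when any single library was left out, with log2 changes of 1.99 to 2.53. With the mean log2 level of the leukocyte markers as a covariate the log2 change was 0.86 (SE 0.22, edgeR adjusted p = 0.0748), and with that of the muscle markers it was 1.94 (SE 0.495, edgeR adjusted p = 0.07).

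Cd274 (gene ID 60533), the gene of PD-L1, was at 7.39, 11.9, 19.4, 31.3 and 8.25 CPM in wild type and at 36.9, 27.7, 42.3, 63.2 and 41.4 CPM in knockout. Wild-type replicate 4 lay above knockout replicate 2, and the other 4 wild-type libraries lay below every knockout library. The means were 15.7 ± 9.96 and 42.3 ± 13.0 CPM, with a log2 change of 1.43 (SE 0.397, edgeR adjusted p = 0.0406). This call was close to the threshold, and 8 of the 10 fits that left out a library lost it. Without wild-type replicate 4 the log2 change was 1.85 (adjusted p = 0.00628), and with the leukocyte covariate it was 0.35 (SE 0.328, adjusted p = 0.652).

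Cd274 and Pdcd1lg2 are neighbours on the same strand of chromosome 19 in the RefSeq and GENCODE annotations of GRCm38, the build of the sequence tables at hand, whereas the submitters' processing notes name GRCm39. The 250 bases before each start site are shown because these 2 genes were called together. RefSeq (GRCm38.p6) places them at chr19:29367188-29367437 and chr19:29410669-29410918, both on the plus strand. Capitals mark a match to the NF-kB consensus.
Cd274: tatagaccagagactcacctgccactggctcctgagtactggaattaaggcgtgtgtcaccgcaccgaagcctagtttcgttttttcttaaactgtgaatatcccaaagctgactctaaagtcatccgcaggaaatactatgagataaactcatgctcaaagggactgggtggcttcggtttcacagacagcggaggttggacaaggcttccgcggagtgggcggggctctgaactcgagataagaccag
Pdcd1lg2: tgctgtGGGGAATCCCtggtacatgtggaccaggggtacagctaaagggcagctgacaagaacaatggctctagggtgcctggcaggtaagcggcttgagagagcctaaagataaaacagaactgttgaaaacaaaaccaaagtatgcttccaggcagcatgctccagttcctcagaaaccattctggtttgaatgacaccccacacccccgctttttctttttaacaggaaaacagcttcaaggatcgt
The windows were searched on both strands for an interferon-stimulated response element (GAAA, any 2 bases, then GAAA), TTCNNNGAA (a gamma-activated sequence) and the NF-kB consensus, the last of which was narrowed after a looser form had been seen to match many promoters. These occur in 2.98%, 7.02% and 3.9% of 32851 promoter windows of this length. The only match among the 9 members with a promoter in the table was the NF-kB match of Pdcd1lg2, which begins 244 bases before the start site and does not overlap another motif. A match of letters is a description and not a binding site, and the levels of these genes were not tested against it.

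**Figure D1:**
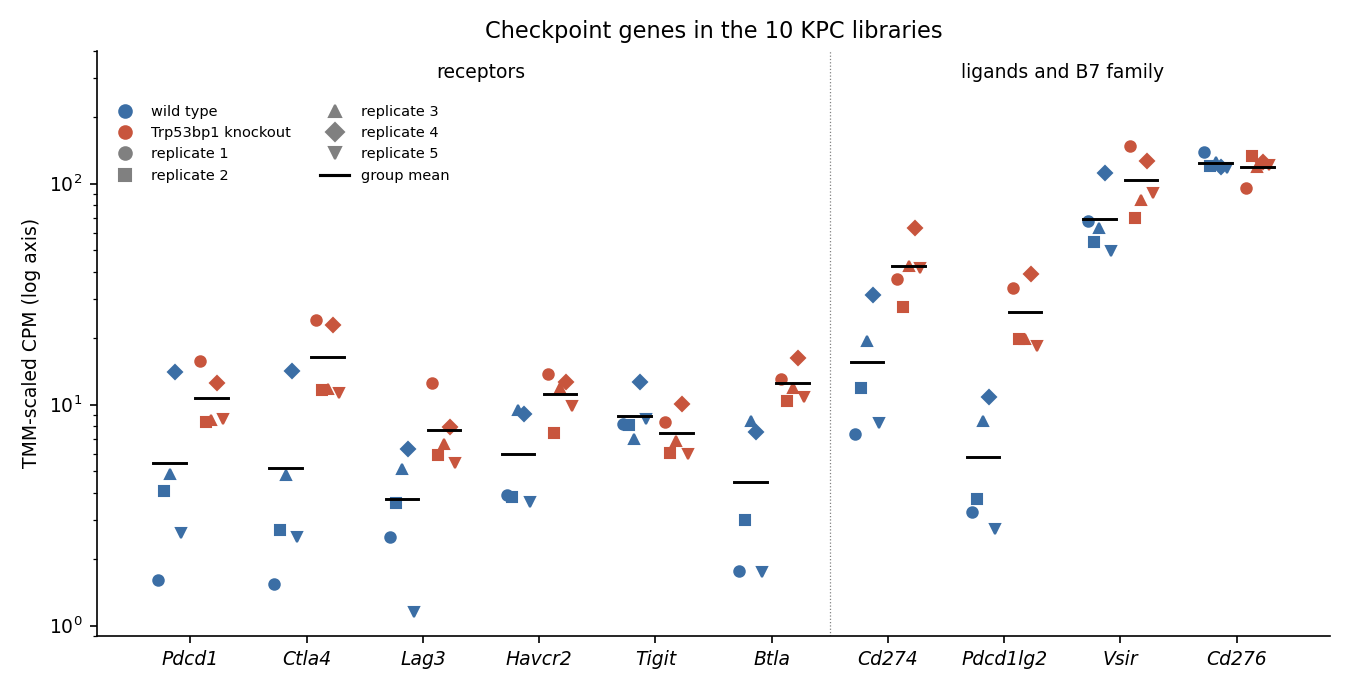
TMM-scaled CPM (log axis) of the 6 receptor genes and 4 ligand and B7 family genes in the 10 KPC libraries, with 1 symbol per replicate number and lines at the group means. Pdcd1lg2 and Btla show no overlap between the groups, as did 5.34% of all genes tested in that direction. Pdcd1 and Ctla4 overlap through wild-type replicate 4, and Tigit and Cd276 lie at like levels in both groups.

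Of the 6 receptor genes none was called in KPC, although 5 had a positive log2 change (median of the 6, 1.01). By edgeR 4 of them (Ctla4, Lag3, Havcr2 and Btla) were under an unadjusted p of 0.05, the same 4 were called by the DESeq2 Wald test, and limma-voom called these and Pdcd1. These counts stand against 32.5% of all genes at that unadjusted p, and 22.1% called by each of the other tools. Pdcd1 (gene ID 18566), the gene of PD-1, was at 1.60, 4.08, 4.85, 14.1 and 2.62 CPM in wild type and at 15.8, 8.34, 8.51, 12.5 and 8.58 CPM in knockout. Wild-type replicate 4 was above 4 of the 5 knockout libraries, and the other 4 wild-type libraries were below all of them. Its log2 change was 0.97 (SE 0.509, edgeR adjusted p = 0.209), and 1.71 (SE 0.336, adjusted p = 0.00852) without wild-type replicate 4.

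Ctla4 (gene ID 12477), whose product competes with CD28 for CD80 and CD86 and is abundant on regulatory T cells, was likewise high in wild-type replicate 4. It was at 1.55, 2.72, 4.79, 14.2 and 2.51 CPM in wild type and at 24.2, 11.7, 11.8, 22.9 and 11.3 CPM in knockout. Wild-type replicate 4 was above 3 of the 5 knockout libraries, and the other 4 wild-type libraries were below all of them. Its log2 change was 1.66 (SE 0.568, edgeR adjusted p = 0.076), and 2.5 (SE 0.383, adjusted p = 0.0037) without wild-type replicate 4. The T cell and regulatory T cell marker sums of wild-type replicate 4 were 117.1 and 25.8 CPM, against 15.2 to 46.1 and 6.62 to 19.6 CPM in the other wild-type libraries, and the part of these cells in the values was not tested.

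Btla (gene ID 208154), the gene of an inhibitory receptor of B cells, T cells and dendritic cells, came closest to a call among the receptors. It was at 1.76, 2.99, 8.40, 7.53 and 1.75 CPM in wild type and at 13.1, 10.4, 11.9, 16.3 and 10.8 CPM in knockout. The groups did not overlap, as for 5.34% of all genes tested in that direction and 11.8% in either. A log2 change of 1.47 was fitted (SE 0.443, edgeR adjusted p = 0.0514), just outside the threshold. It passed in 6 of 19 alternatives, among them the DESeq2 Wald test (adjusted p = 0.00533), by which 22.1% of all genes were called. Summed B cell markers were 0.93 to 3.20 CPM in wild type and 3.06 to 7.88 CPM in knockout. After group means were subtracted, log2 levels of Btla over the 10 libraries correlated at 0.97 with dendritic cell, 0.86 with T cell and 0.55 with B cell marker scores, and the part of these cells was not tested.

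Lag3 (gene ID 16768), whose product binds MHC class II, was at 2.53, 3.59, 5.10, 6.29 and 1.15 CPM in wild type and at 12.5, 5.91, 6.66, 7.93 and 5.44 CPM in knockout. Its log2 change was 1.04 (SE 0.404, edgeR adjusted p = 0.106). Havcr2 (gene ID 171285), the gene of TIM-3 on T cells and myeloid cells, was at 3.88, 3.81, 9.43, 9.08 and 3.61 CPM in wild type and at 13.7, 7.45, 11.9, 12.7 and 9.88 CPM in knockout, with a log2 change of 0.90 (SE 0.319, adjusted p = 0.0831). In each of these genes the ranges overlapped through 1 or 2 libraries, and neither was called.

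Tigit (gene ID 100043314), the gene of a receptor of T and NK cells for CD155 and CD112, was the exception among the receptors in its sign. It was at 8.17, 8.05, 6.96, 12.7 and 8.58 CPM in wild type and at 8.37, 6.02, 6.86, 10.1 and 5.96 CPM in knockout, so the 2 groups spanned much the same range. The log2 change was -0.25 (SE 0.2, edgeR adjusted p = 0.394), negative in all 19 alternatives (-0.77 to -0.09) and called in none of them. In GENCODE (GRCm38) the neighbours of Tigit are Zbtb20 and Drd3, and it overlaps neither.

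Vsir and Cd276 were not called in KPC. Vsir (gene ID 74048), the gene of VISTA, which myeloid cells carry at high levels, was at 67.9, 54.5, 63.1, 111.7 and 49.7 CPM in wild type and at 148.1, 70.1, 84.3, 126.5 and 90.5 CPM in knockout. Its log2 change was 0.58 (SE 0.259, edgeR adjusted p = 0.149), and 0.82 (adjusted p = 0.0247) without wild-type replicate 4. Summed macrophage markers were 1905 to 4109 CPM in wild type and 3111 to 5082 CPM in knockout, and their part in the Vsir values was not tested.

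Cd276 (gene ID 102657), the gene of B7-H3, a B7 family protein found on many tumour and stromal cells, was at 139.1, 119.9, 125.8, 119.2 and 118.4 CPM in wild type and at 95.8, 133.0, 118.5, 124.8 and 121.0 CPM in knockout. The ranges of the groups overlapped. The log2 change was -0.07 (SE 0.0877, edgeR adjusted p = 0.607), and 0.01 without knockout replicate 1. Its spread in wild type was the narrowest of the members relative to the mean, with an SD of 8.70 CPM on a wild-type mean of 124.5.

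Leaving out KPC wild-type replicate 4 changed the picture for the list more than any other single library. Without it 8 of the 10 members were called higher, namely all but Tigit and Cd276, with 3106 genes called in all (21.6% of those tested). Leaving out any other library gave 1 or 2 called members. With the leukocyte score as a covariate 0 members were called and 5 had a positive change. That score itself differed between the genotypes, so the covariate and the genotype share part of what they describe.

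**Figure D2:**
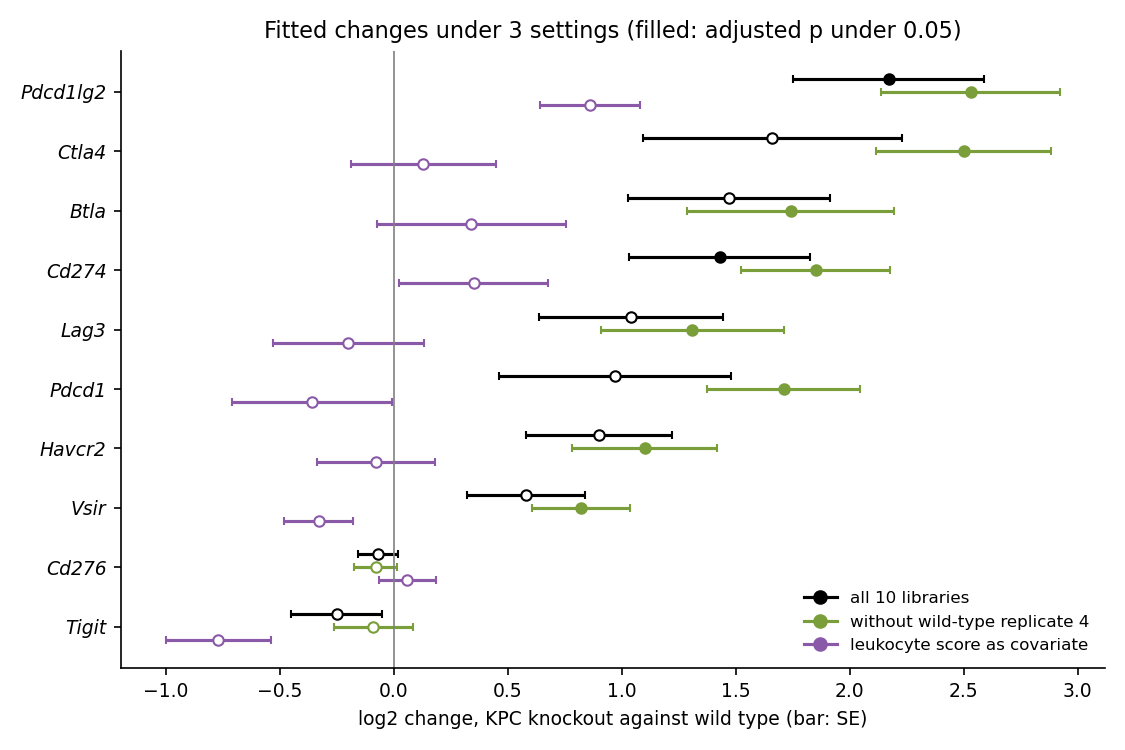
Log2 change (x axis, bar = SE) of each member between KPC knockout and wild type with all 10 libraries, without wild-type replicate 4, and with the leukocyte score as a covariate, filled where the edgeR adjusted p was under 0.05. Only Pdcd1lg2 and Cd274 are filled with all libraries, 8 genes are filled without replicate 4, and none is filled with the covariate.

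The receptors were set against T cell transcripts in each KPC library, as counts per 100 summed counts of 10 T cell markers (Cd3e, Cd3d, Cd3g, Cd247, Cd2, Cd4, Cd8a, Cd8b1, Lck and Zap70). These ratios are descriptions with no test, and the share of all genes whose groups would not overlap in such a ratio was not taken. Pdcd1 was at 10.5, 11.6, 10.5, 12.1 and 15.6 per 100 in wild type and at 9.94, 10, 9.30, 9.88 and 8.86 in knockout. Each knockout library was below each wild-type library, and the mean ratio of Pdcd1 in knockout was 0.796 times that in wild type. Ctla4 was at 7.72 to 15.0 per 100 in wild type and 11.7 to 18.1 in knockout, and Btla at 6.43 to 18.2 and 8.27 to 13.0, each with overlapping groups. Lag3 was at 5.37 to 16.7 and 5.62 to 7.86, and Havcr2 at 7.75 to 25.5 and 8.61 to 13.0. Tigit was at 53.7, 22.8, 15.1, 10.9 and 51.1 per 100 in wild type and at 5.26 to 7.99 in knockout, with no overlap. Its ratio was highest in the 2 libraries with the lowest T cell marker sums, wild-type replicates 1 and 5. That sum was 15.2 to 117.1 CPM in wild type and 83.3 to 159.1 CPM in knockout. A higher sum lowers the ratio by definition, and Tigit in CPM overlapped between the groups.

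The ligands were set against Ptprc in the same way. Pdcd1lg2 was at 6.39, 6.63, 9.07, 7.71 and 5.34 counts per 100 Ptprc counts in wild type and at 15.5, 19.0, 14.9, 17.6 and 13.4 in knockout. Relative to this leukocyte transcript the groups did not overlap, and the mean ratio was 2.29 times as high in knockout. The share of all genes that would not overlap in this ratio was not taken. Cd274 was at 14.5 to 22.3 per 100 in wild type and 17.0 to 31.8 in knockout, with an overlap through knockout replicate 1. Vsir was at 68.0 to 133.2 and 57.1 to 68.1, and Cd276, which need not come from leukocytes, at 84.8 to 273.0 and 44.0 to 126.7. Dendritic cell markers moved in KPC as well. Of 8 such markers 5 were called higher in knockout, against 6.67% of all genes tested. They were Xcr1 (1.97 ± 1.32 and 6.46 ± 2.32 CPM), Clec9a (2.81 ± 1.97 and 9.70 ± 2.5 CPM), Itgax, Ccl22 and Cd209a. The summed level of the 8 was 221.9 to 339.4 CPM in wild type and 308.7 to 550.7 CPM in knockout. Much of it was Fscn1 (187.3 ± 21.6 and 149.2 ± 16.8 CPM), which was called lower and is also high in ID8. No ratio of Pdcd1lg2 to these markers was taken, and their part in the Pdcd1lg2 values was not tested.

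**Figure D3:**
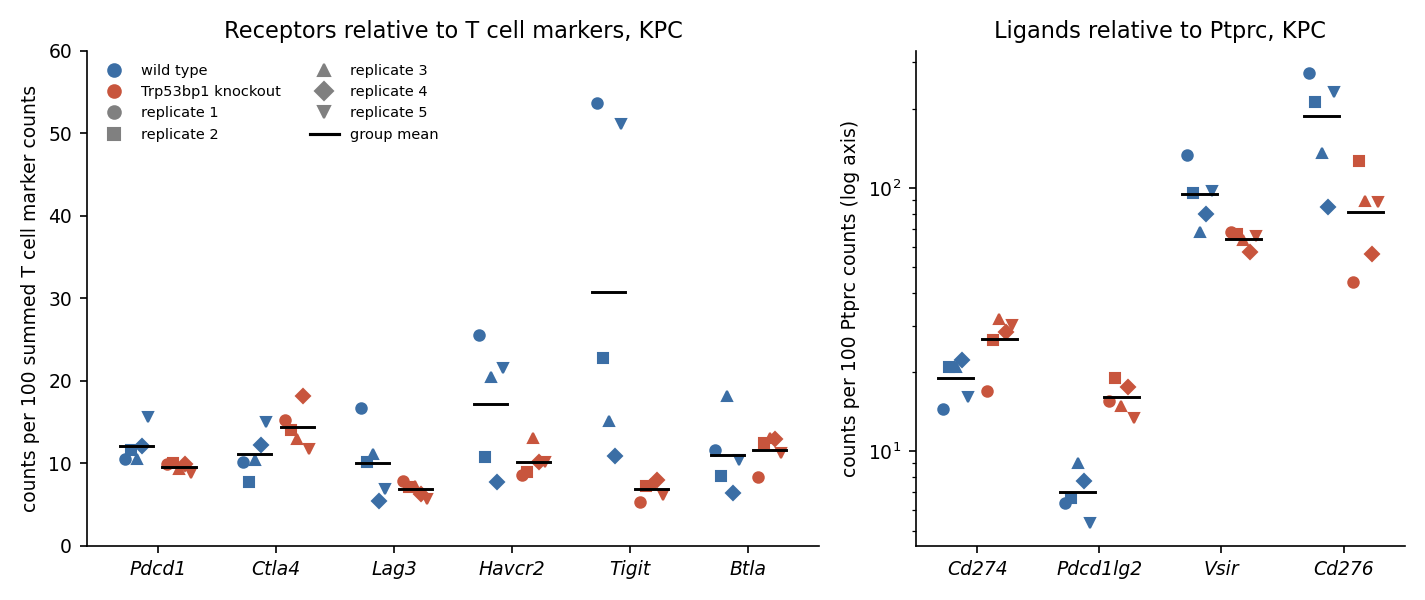
Counts of each receptor per 100 summed T cell marker counts (left) and of each ligand or B7 family gene per 100 Ptprc counts (right, log axis) in the 10 KPC libraries, with lines at group means. Pdcd1 and Tigit lie lower in every knockout library than in any wild-type library, by a small margin for Pdcd1 (10 against 10.5), and Pdcd1lg2 lies higher in every knockout library. No share over all genes was taken for these ratios.

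Among the 10 KPC libraries, 7 members (Pdcd1, Ctla4, Lag3, Havcr2, Btla, Cd274 and Pdcd1lg2) varied together within the genotypes. This set was chosen after its values were seen. After group means were subtracted, Pearson correlations of log2 CPM over their 21 pairs were 0.71 to 0.97 (median 0.86). The libraries are of like depth but differ in marker sums (T cell 15.2 to 159.1 CPM, skeletal muscle 18.2 to 29051 CPM), and the part of that make-up in these values was not tested. Pdcd1 and Ctla4 had the highest value (0.97). Cd276 had negative values with each of the 7 (-0.50 with Pdcd1, -0.19 with Cd274). Vsir, outside the set, had 0.54 (Btla) to 0.79 (Pdcd1lg2 and Ctla4) with the 7. With the leukocyte marker score the 7 had 0.81 (Btla) to 0.95 (Pdcd1lg2) within genotypes, so such values were not particular to pairs of members. Tigit correlated within genotypes at 0.65 with Pdcd1 and 0.73 with Ctla4, against 0.20 and 0.12 before group means were subtracted.

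Genes with the most similar pattern were ranked by Pearson correlation over the 10 libraries among 12546 genes, and where 2 values are given the other is that after group means were subtracted. For Pdcd1 they were Klrd1 (0.988 and 0.979), Cd3d (0.985 and 0.981) and Cd247 (0.982 and 0.980), of which Cd3d and Cd247 encode chains of the T cell receptor complex. For Ctla4 they were Icos (0.991 and 0.977), Gpr132 and Ppp1r16b. Vsir was nearest to Adgre1 (0.979 and 0.975), the macrophage gene F4/80, then to Pstpip1 and Lrrc25. Cd274 was nearest to Il2rb (0.987 and 0.968), H2-T23 (0.986 and 0.965) and Erap1 (0.985 and 0.970), of which Erap1 trims peptides for MHC class I. Pdcd1lg2 was nearest to Lilrb4a (0.993 and 0.969), a myeloid inhibitory receptor gene, Cd300lf and Pik3r5. Btla was nearest to Hepacam2 (0.984 and 0.961), Naip2 and Wdfy4. Lag3 was nearest to Napsa (0.978 and 0.970), Aldh1b1 and Gna15, and Havcr2 to Klrb1b (0.976 and 0.951), Pkib and Ripk3. Tigit had lower best values (Hps6 at 0.874 and 0.852, Rnpepl1 at 0.871 and 0.853, and Plbd2 at 0.857 and 0.888), and none of these is a T cell marker of the lists. Cd276 was nearest to Ptgfrn (0.963 and 0.966), Rasal2 (0.946 and 0.961) and Ankrd50 (0.942 and 0.939).

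**Figure D4:**
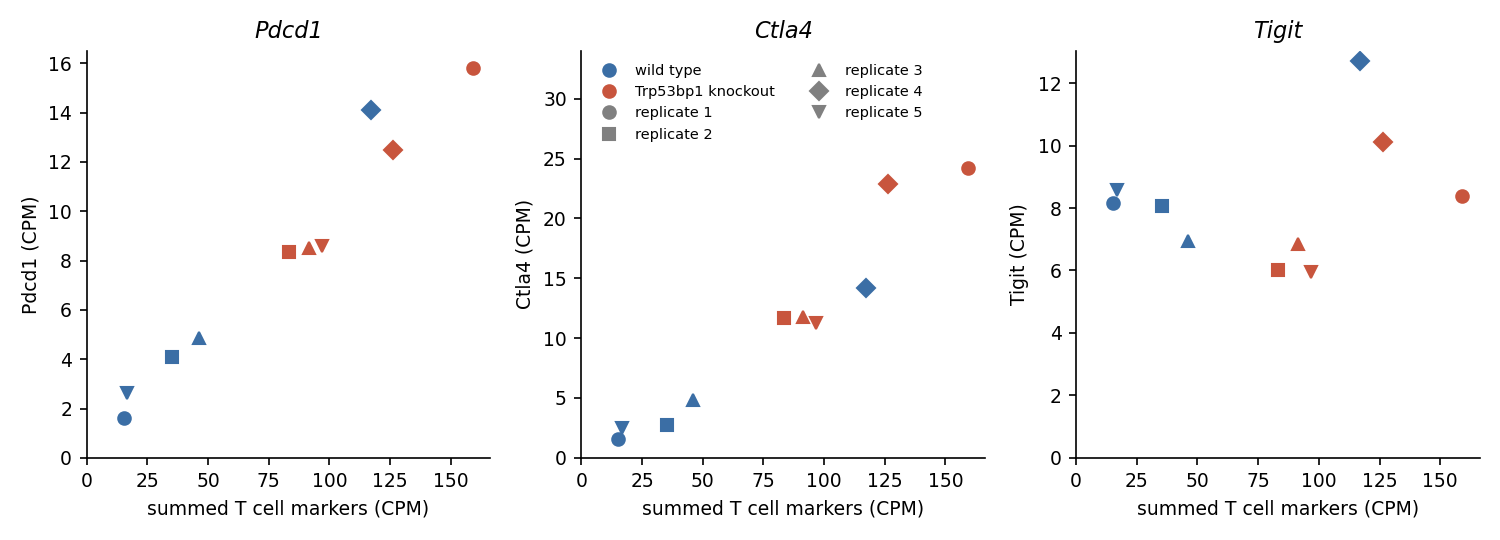
CPM of Pdcd1, Ctla4 and Tigit (y axes) against the summed CPM of 10 T cell markers (x axes) in the 10 KPC libraries, with 1 symbol per replicate number. Pdcd1 and Ctla4 are low where the T cell sum is low and high where it is high, whereas Tigit is at 8.17 and 8.58 CPM in the 2 libraries with the lowest sums and correlates with the T cell score at 0.08 over all libraries and 0.57 within genotypes.

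In ID8 only 4 of the 10 members passed the count filter, and 3 were called, Cd274 higher and Cd276 and Tigit lower. Of 11933 genes tested in ID8, 50.8% were called (25.4% higher and 25.5% lower), and the count of members is near that background. The spread between libraries of a group (edgeR's common biological coefficient of variation) was 25.1% in KPC and 5.08% in ID8. The p-values in ID8 rest on that narrower spread. Cd274 was at 1.67, 1.63 and 2.05 CPM in wild type and at 3.27, 4.36 and 3.29 CPM in knockout, from 31 to 39 and 64 to 85 counts. The groups did not overlap, as for 29.1% of all genes tested in that direction and 58% in either. The log2 change was 1.03 (SE 0.183, edgeR adjusted p = 0.000208), and it stayed called without any single library (0.88 to 1.13). The Cd274 transcript of ID8 libraries was measured with Ptprc and Cd3e at 0 counts. Of 10 listed macrophage markers, 5 (Adgre1, C1qa, C1qb, C1qc and Fcgr1) were at 0 in both ID8 groups, and the others, among them Cd68, were counted. Which cells gave the Cd274 transcript was not tested.

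Cd276 was at 47.0, 46.4 and 49.5 CPM in ID8 wild type and at 30.3, 30.5 and 32.0 CPM in knockout. Each knockout library was below each wild-type library, as for 28.8% of all genes tested in that direction. The means were 47.6 ± 1.65 and 31.0 ± 0.91 CPM (SD, n = 3 each), with a log2 change of -0.62 (SE 0.058, edgeR adjusted p = 1.91e-07) that was called in all 13 alternatives. The epithelial markers were also lower in ID8 knockout, and their part in the Cd276 and Cd274 values was not tested.

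Tigit and Lag3 were counted in ID8 although 8 of 10 listed T cell markers, among them Cd3e, Cd3d, Cd3g, Cd4 and Cd8a, had 0 counts in both ID8 groups. Tigit was at 1.36, 1.74 and 1.84 CPM (26 to 35 counts) in wild type and at 1.23, 0.974 and 1.13 CPM (19 to 24 counts) in knockout. Its log2 change of -0.56 (SE 0.227, edgeR adjusted p = 0.0477) lost its call in 9 of 13 alternatives, including the DESeq2 Wald test (adjusted p = 0.162). Lag3 was at 1.62, 1.42 and 1.84 CPM in wild type and at 1.02, 1.69 and 1.59 CPM in knockout, with overlapping groups and a log2 change of -0.18 (SE 0.232, edgeR adjusted p = 0.544).

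The other 6 members were at or near 0 in ID8. Pdcd1lg2 and Ctla4 had 0 counts in all 6 libraries, where 3 counts correspond to about 0.15 CPM, and Btla, Vsir and Havcr2 had 0 to 4 counts per library. Pdcd1 had 2, 4 and 1 counts in wild type and 6, 11 and 12 in knockout, a sum of 7 against 29, and did not pass the count filter. With no filter Pdcd1 was among the called genes, as were 40.3% of all genes tested. It passed the filter, and was called, in the fits without wild-type replicate 1, 2 or 3 or knockout replicate 1. In those fits 44.5% to 48% of all genes tested were called. Without knockout replicate 2 or 3 it did not pass and was not tested. It thus passed only through the knockout libraries, where it is higher, so these calls are not independent support for a change. At these counts the values describe a few molecules.

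**Figure D5:**
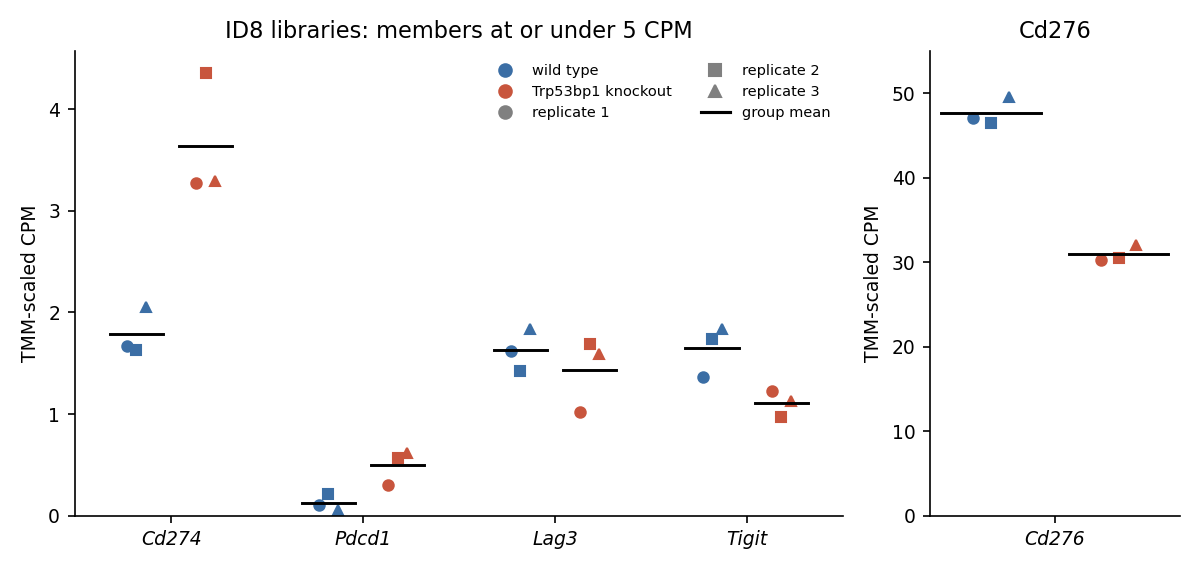
TMM-scaled CPM of Cd274, Pdcd1, Lag3 and Tigit (left) and of Cd276 (right) in the 6 ID8 libraries, with 1 symbol per replicate number and lines at group means. Cd274 lies at 1.63 to 2.05 in wild type and 3.27 to 4.36 in knockout, and Cd276 at 46.4 to 49.5 and 30.3 to 32.0.

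The change of Cd276 differed between the lines. Its log2 change was 0.58 more positive in KPC than in ID8 (SE 0.12, edgeR interaction adjusted p = 0.00329), where 21.9% of 14921 genes were called and 11.6% were called in that direction and 10.3% in the other. This held in all 22 alternatives (0.53 to 0.63). The change of Cd274, positive in each line, had a difference of 0.42 (SE 0.639, adjusted p = 0.727), whose error spans a difference as large as the change in ID8. Lag3 (1.24, SE 0.616, adjusted p = 0.172) and Tigit (0.33, SE 0.336, adjusted p = 0.548) were not called either, although limma-voom called the Lag3 difference (1.37, adjusted p = 0.0304). Cd274 RNA in KPC comes from libraries with leukocyte markers and in ID8 from libraries where Ptprc was at 0, so the 2 changes need not describe the same cells.

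Levels of different genes were compared per kilobase of annotated exons, as CPM on a TMM scale common to all 16 libraries, with lengths from GENCODE M21 on GRCm38. In KPC wild type the order of mean levels was Cd276 (33.2 ± 2.39 CPM per kb, SD, n = 5), Vsir (13.6 ± 5.14), Tigit (9.49 ± 2.57), Cd274 (4.25 ± 2.79), Pdcd1lg2 (2.91 ± 1.86), Pdcd1 (2.79 ± 2.63), Ctla4 (2.19 ± 2.27), Havcr2 (2.15 ± 1.11), Lag3 (1.74 ± 0.971) and Btla (1.3 ± 0.944). From Cd274 downward, neighbours in this order differed by less than the larger of their SDs. In KPC knockout the order began with Cd276 (32.1 ± 3.54) and Vsir (20.6 ± 6.56), followed by Pdcd1lg2 (13.3 ± 4.90) and Cd274 (11.6 ± 3.59), which were now above Tigit (8.05 ± 1.95). Ctla4 (6.98 ± 2.86), Pdcd1 (5.53 ± 1.76), Havcr2 (4.05 ± 0.936), Btla (3.65 ± 0.704) and Lag3 (3.62 ± 1.38) followed, and from Pdcd1lg2 downward neighbours differed by less than the larger of their SDs. In ID8 Cd276 was at 13.4 ± 0.497 CPM per kb in wild type and 8.68 ± 0.252 in knockout (n = 3 each), and each other member was under 2 CPM per kb. Exons of Cd274 and Cd276 share bases with an antisense transcript in this annotation, and no source used here gives the strand setting of the counting.

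Ligands and partners of the receptors changed in part. Of 14 listed genes 13 were tested in KPC, of which 4 were called higher and 1 lower, with a median log2 change of 0.32. Over all genes tested there, 6.67% were called higher and 7.01% lower. Cd80, a ligand of CTLA-4 and CD28, rose from 11 ± 3.83 to 20.7 ± 6.48 CPM (log2 change 0.92, edgeR adjusted p = 0.0482), while Cd86 was at 19.4 ± 6.85 and 32.2 ± 10.4 CPM and was not called (adjusted p = 0.096). Ceacam1, a proposed partner of TIM-3 that epithelial cells also carry, rose from 27.2 ± 2.30 to 49.8 ± 11.2 CPM, and Lgals3, a galectin gene, rose from 222.5 ± 35.8 to 392.5 ± 93.8 CPM, in the line where epithelial markers also rose, whose part was not tested. Selplg, the gene of PSGL-1, a proposed partner of VISTA, rose from 37.9 ± 20.9 to 91.7 ± 31.8 CPM. Igsf11, another proposed VISTA partner, fell from 1.65 ± 0.371 to 0.586 ± 0.102 CPM. The TIGIT ligand genes Pvr (51.3 ± 1.42 and 57.4 ± 5.68 CPM) and Nectin2 (80.8 ± 8.26 and 84.5 ± 4.45 CPM) were not called, with log2 changes of 0.16 (SE 0.0735) and 0.06 (SE 0.0759). Tnfrsf14, the gene of the BTLA ligand HVEM, and the galectin gene Lgals9 were at 22.2 ± 9.78 and 35.9 ± 5.00 CPM and at 170.5 ± 22.2 and 212.4 ± 20.9 CPM, with adjusted p of 0.0842 and 0.0553.

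In ID8, 7 of these 14 genes were tested, of which 3 were called higher and 1 lower. Of all genes tested in ID8, 50.8% were called, and this count is near that share. Lgals9 rose from 79.8 ± 3.18 to 126.4 ± 6.79 CPM, Tnfrsf14 from 6.26 ± 0.543 to 9.60 ± 0.676 CPM and Nectin3 from 11.3 ± 0.14 to 21.5 ± 0.795 CPM. Lgals3 fell from 75.7 ± 7.39 to 48.4 ± 1.60 CPM in ID8, the opposite sign to KPC. Nectin2 was at 342.0 ± 12.0 and 347.1 ± 14.9 CPM and was not called (log2 change 0.02, SE 0.0484), and neither was Pvr (-0.14, SE 0.0637, edgeR adjusted p = 0.0855). Cd86 had 0 counts in ID8, and Cd80 had a mean of at most 0.154 CPM per group.

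Some genes of a list for PD-L1 induction and stability were called in each line, with partly the same members. In KPC 3 of 14 tested were called higher and 0 lower (median log2 change 0.22), against 6.67% and 7.01% of all genes tested. Irf1 rose from 129.2 ± 40.0 to 256.6 ± 51.8 CPM (edgeR adjusted p = 0.017), the kinase gene Jak2 from 137.9 ± 6.16 to 182.9 ± 27.5 CPM and the feedback inhibitor gene Socs1 from 10.5 ± 5.15 to 23.0 ± 6.89 CPM. In ID8 7 of 14 were called higher and 2 lower (median 0.24), against 25.4% and 25.5% of all genes tested. Stat3 rose from 239.4 ± 8.35 to 342.4 ± 11.4 CPM there, Irf1 from 100.6 ± 2.90 to 132.5 ± 1.96 CPM and the receptor gene Ifngr2 from 79.8 ± 4.20 to 115.5 ± 10 CPM. Irf1 and Jak2 were called higher in both lines. Ifng, the gene of interferon-gamma, did not pass the filter in either line (0.209 ± 0.162 and 0.653 ± 0.364 CPM in KPC, 0 counts in ID8).

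Other inhibitory receptors in KPC included 4 called higher and 0 lower of 14 tested (median log2 change 1.00). The counts for this list and the costimulatory and signalling lists below stand against 6.67% of all genes called higher and 7.01% lower. Klrg1, of NK and effector T cells, rose from 1.63 ± 0.776 to 5.15 ± 1.53 CPM, Lilrb4a from 42.8 ± 13.1 to 102.8 ± 25.5 CPM, Cd200r1, a receptor of myeloid cells, from 6.53 ± 2.84 to 15.9 ± 4.71 CPM, and Cd96 from 1.01 ± 0.792 to 3.34 ± 1.21 CPM. Of 7 costimulatory receptors tested, 2 were called higher, Tnfrsf9 (4-1BB, 15.7 ± 5.24 to 32.7 ± 8.56 CPM) and Tnfrsf18 (GITR, 4.78 ± 3.26 to 14 ± 3.31 CPM), with a median of 1.55. Of 7 costimulatory ligands, Tnfsf14 (2.68 ± 1.59 to 7.47 ± 2.39 CPM) and Icosl (11.1 ± 3.68 to 19.2 ± 4.40 CPM) were called higher, with a median of 0.79. Of 13 signalling and exhaustion factors, 0 were called higher and 1 lower, Nr4a1, an early gene of receptor signalling (77.0 ± 30.5 to 42.1 ± 8.44 CPM), with a median of 0.22. The phosphatase gene Ptpn11 and Nfatc1, of the same list, were not called (adjusted p = 0.0669 and 0.0522).

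These lists were thinly represented in ID8. Nt5e, the gene of CD73, rose from 24.3 ± 0.569 to 35.0 ± 1.48 CPM, and Sirpa, the receptor gene for CD47, fell from 2.57 ± 0.635 to 0.529 ± 0.0766 CPM. Cd28 (0.981 ± 0.426 to 0.307 ± 0.103 CPM) and Tnfsf9 (9.13 ± 0.217 to 7.41 ± 1.2 CPM) fell, and Tnfrsf9 was not called (edgeR adjusted p = 0.249). Of 7 signalling factors tested, Ptpn11, Nr4a2 and Nfatc1 were called higher, and Ptpn6, the gene of SHP-1, fell from 9.07 ± 0.574 to 4.25 ± 0.554 CPM. The count for this list is near the 50.8% called among all genes tested in ID8.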

How the data were processed

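RNA of 16 libraries was measured by sequencing. The authors deposited expected counts by gene, and the submitters' processing notes name HISAT, RSEM 1.2.8 and the build GRCm39 (mm39), with neither role nor order. Of the deposited expected counts, 7.92% to 8.96% per table were not whole. They were rounded, and a gene not listed in a table was taken as 0. Library totals were 17902877 to 19727541 counts, so 3 counts are near 0.15 CPM, and these limits cover counting error only. No library was a repeat of another of its group within sampling noise (lowest chi-square per gene 4.36), and pairs across groups were not compared.

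Testing was by quasi-likelihood F tests (robust) in edgeR 4.0.16 under R 4.3.3, after filterByExpr and TMM scaling, adjusted by Benjamini-Hochberg over every gene tested. KPC and ID8 had separate fits, and an interaction over all 16 libraries compared them. SEs are approximate, from the log2 change and the square root of its F. As alternatives, DESeq2 1.42.0 (Wald test), voom with quality weights (limma 3.58.1), size factors by median of ratios, no filter, a filter at 1 CPM, a replicate block, a joint fit, leukocyte or muscle score covariates, an adjusted p of 0.1, and leaving out each library were run.

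The members and the gene lists were chosen with earlier results of these data known. Genes named are the members, Trp53bp1, 6 partners (Cd80, Cd86, Pvr, Nectin2, Tnfrsf14 and Lgals9), Ptprc, Cd3e, Adgre1, Acta1, Krt8 and Epcam, up to 4 called genes per other list by smallest p (where fewer than 2 are called, also the 2 of highest level), and the 3 genes most alike to each member (at a mean log2 CPM of at least 1). Other marker genes were named for their list. Of the list genes, Trac was not matched and is not analysed here. Lag3 has no entry in the promoter table. The values of 1 gene of the PD-L1 induction list are not reported here.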

Additional observations from a re-analysis of the deposited data

Results flagged for a closer look

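In KPC wild type, 3 members had a library far above the rest of its group, each time replicate 4. Pdcd1 was at 14.1 CPM there, and the next library was at 4.85 CPM. Ctla4 was at 14.2 CPM, and the next was at 4.79 CPM. Tigit was at 12.7 CPM, and the next was at 8.58 CPM. Chance alone sets apart about 1 in 20 such groups, and 20 member groups were checked, whose genes are not independent. The summed T cell markers were also highest in this library (117.1 CPM, against 15.2 to 46.1 in the other 4), and their part in these values was not tested.

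The change of Cd276 differed between the lines, with a log2 change 0.58 more positive in KPC than in ID8 (SE 0.12, edgeR interaction adjusted p = 0.00329). Cd276 was lower in 3 of 3 ID8 knockout libraries than in each wild-type library, as for 28.8% of all genes tested in ID8, and the KPC groups overlapped. The interaction was called for 21.9% of all genes tested, so neither trait is rare in these data.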

How the results depend on the processing

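In KPC, 1954 genes and 2 members were called. Genes and members called were 3162 and 6 by the DESeq2 Wald test, 3163 and 7 by limma-voom, 3524 and 5 in the joint fit of the 4 groups, 324 and 0 with the leukocyte score and 397 and 0 with the muscle score as a covariate. Without a filter 1 member was called, and at an adjusted p of 0.1 there were 5. Leaving out 1 library gave 927 to 3106 genes and 1 to 8 members. The highest values came without wild-type replicate 4, while 1850 genes were called without knockout replicate 2 and 927 to 1284 without any other library. With the leukocyte score the log2 changes of Pdcd1 (-0.36), Lag3 (-0.20), Havcr2 (-0.08), Vsir (-0.33) and Cd276 (0.06) changed sign, and that of Trp53bp1 (-0.40, adjusted p = 0.11) lost its call. Leaving out 1 library put Cd276 in KPC at -0.09 to 0.01, positive without knockout replicate 1. Pdcd1lg2 lost its call in 2 of 19 alternatives, the covariates, and Cd274 in 11. In ID8, the joint fit called 2679 genes and 1 member in place of 6067 and 3, with a spread shared with KPC, and Cd274 lost its call in that fit alone (adjusted p = 0.219). Lag3 in ID8 was at -0.31 to 0.01, positive without knockout replicate 1. Leaving out 1 library in ID8 gave 5355 to 5786 genes and 2 to 4 members. The difference between lines called 3262 genes, and 4958 by limma-voom. Otherwise the cause of these shifts was not tested.

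With the replicate number as a block, 1665 genes and 6 members were called in KPC. The labels give replicate numbers and do not say whether same-numbered libraries are paired. Deviations of same-numbered libraries correlated at -0.54 to 0.59 in KPC (5 pairs) and -0.11 to 0.14 in ID8 (3 pairs). In each line 1 pair was best matched with its own number. With so few pairs these values cannot decide whether the libraries were paired. In ID8, 6 members were under the count filter, at totals of 18963868 to 19727541 counts, against 17902877 to 19302944 in KPC, where all 10 members passed.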

Other observations

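Genes next to the members in the GENCODE annotation of GRCm38 were read after the members' values were seen. Plgrkt, the plasminogen receptor gene beside Cd274 on the opposite strand, rose in KPC from 31.8 ± 1.11 to 43.4 ± 2.10 CPM (SD, n = 5 each, log2 change 0.45, SE 0.057, edgeR adjusted p = 0.00161) and in ID8 from 48.0 ± 4.56 to 57.8 ± 2.97 CPM (n = 3 each, 0.27, SE 0.0676, edgeR adjusted p = 0.00332). Ric1, beside Pdcd1lg2 on its strand, had a log2 change of 0.17 in KPC (SE 0.0903, edgeR adjusted p = 0.206) and 0.18 in ID8 (SE 0.0544, edgeR adjusted p = 0.0111). Psap, beside Vsir, rose in KPC (0.57, SE 0.14) and fell in ID8 by 0.19 on the log2 scale (SE 0.0489). The neighbours of Tigit were at 84.8 ± 14.5 and 50.6 ± 16.6 CPM (Zbtb20) and at 1.06 ± 0.215 and 0.52 ± 0.0915 CPM (Drd3) in KPC wild type and knockout, of which Drd3 was called (edgeR adjusted p = 0.0208) and Zbtb20 was not (0.0518). Ptms, beside Lag3, was at 313.4 ± 10.4 and 315.9 ± 14.9 CPM in KPC and was not called.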
